A study of Mus musculus with 20 samples.

Results

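The mouse genes named Rnf encode proteins with a RING finger, most of them ubiquitin ligases, and they were followed here through single 8-cell embryos that did or did not lack the maternal supply of G9a. G9a, encoded by Ehmt2, is a histone methyltransferase that dimethylates lysine 9 of histone H3. Members were the gene symbols made of Rnf, a number and at most 1 further letter. Rnf2, the catalytic ubiquitin ligase of polycomb repressive complex 1, was left out. Of 82 such symbols among the gene names, 80 had counts, and without Rnf2 79 members remained out of 34937 genes in the count tables. They lie on 19 chromosomes. The family was chosen by earlier results of the comparison between the embryo groups, that is by the measured differences between Ehmt2Mat and Ehmt2Cntr, so the values of that comparison are given below as a description.

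Gene counts came from 19 single embryos collected at E2.5, the 8-cell stage, from natural matings with Ehmt2+/- sires on a mixed genetic background. The 9 Ehmt2Cntr embryos had Ehmt2F/+ mothers carrying Zp3-Cre, a transgene that deletes the floxed allele in growing oocytes. The 10 Ehmt2Mat embryos had Ehmt2F/- mothers carrying Zp3-Cre, so their oocytes lacked an intact Ehmt2 allele. Both groups thus share the Cre transgene and the cross to a heterozygous sire. By zygotic genotype the controls were 6 +/+ and 3 +/- embryos, and the mutants were 5 +/- embryos (Ehmt2M/+) and 5 -/- embryos (Ehmt2M/Z). Growing oocytes of Ehmt2F/+ mothers keep the wild-type allele and thus a maternal supply of G9a, whichever allele the egg passes on. The labels name no mother or litter, and p-values therefore measure the spread between these embryos.

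Total gene counts ranged from 8231646 to 30602434 per embryo, and 3 counts correspond to 0.0911 to 0.363 CPM (read counts scaled to a common library size), a floor that covers counting error only. All 7 markers of the 8-cell embryo were present at a mean of at least 1 CPM, and their summed level was 1952 to 3228 CPM in Ehmt2Cntr and 3050 to 3927 CPM in Ehmt2Mat. Among them Dppa3 had by far the highest level, at 1924 ± 557 CPM (SD, n = 9) in Ehmt2Cntr and 2408 ± 314 CPM (n = 10) in Ehmt2Mat. Tfap2c and Tead4 were called higher in the mutants, with log2 fold changes of 0.75 (SE 0.20) and 0.90 (SE 0.19). Those of Dppa3 (0.32, SE 0.16), Pou5f1 (-0.18, SE 0.38), Nanog (-0.60, SE 0.40) and Zfp42 (-0.74, SE 0.25) were not called. Cdx2 measured 5.96 ± 11.2 CPM (n = 9) in Ehmt2Cntr and 0.162 ± 0.491 CPM (n = 10) in Ehmt2Mat and was not tested. Oocyte markers summed to 27.5 to 234 CPM in Ehmt2Cntr and 88.3 to 308 CPM in Ehmt2Mat, and 1 of 4, Oosp1, was called higher. It measured 11.8 ± 9.36 CPM in Ehmt2Cntr and 76.7 ± 52.4 CPM in Ehmt2Mat, a log2 fold change of 2.70 (SE 0.54). The others, Zp3 (-0.46, SE 0.41), Gdf9 (-0.03, SE 0.29) and Bmp15 (-0.88, SE 0.64), had negative log2 fold changes that were not called. Markers of cumulus and granulosa cells reached at most 4.97 CPM, with Has2, Ptx3, Amh and Foxl2 at 0 in every embryo, and sperm markers at most 1.23 CPM. The part of these marker levels in the values below was not tested. At a summed level of Y-linked genes above 1 CPM, every mutant but embryo 9 was read as male. Among the controls, embryos 3, 5, 9 and 10 were not. Sex was thus unequal between the groups. Ehmt2 itself measured 142 ± 59.7 CPM (SD, n = 9) in Ehmt2Cntr and 102 ± 32.7 CPM (n = 10) in Ehmt2Mat, a log2 fold change of -0.47 (SE 0.24) that was not called. These counts cover the whole gene, so they do not separate the deleted exons from those still transcribed. One embryo of each group stood apart: at 40.5% of the 1099 genes called between the groups control embryo 10 lay nearer to the mutant mean of log2(CPM + 1), and at 39.9% mutant embryo 10 lay nearer to the control mean, against 7.92% to 25% for the other 17 embryos.

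Ubiquitin is attached by a cascade in which an E1 enzyme activates it, an E2 enzyme carries it and an E3 ligase selects the substrate. A RING finger binds zinc ions through cysteine and histidine residues and brings the charged E2 next to the substrate. In the cleavage-stage embryo, protein turnover by ubiquitin ligases accompanies the replacement of oocyte proteins by products of the embryo's own genome. The Rnf name follows the domain rather than descent, so the members act at chromatin, in membranes, in protein quality control and in signalling.

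The RING fingers of the 3 members called between the groups are shown because they display what the family shares. Each stretch is coding sequence of a GENCODE vM21 transcript (GRCm38), read 5′ to 3′, and the capitals mark the codons of the 8 residues that bind zinc.
Rnf126: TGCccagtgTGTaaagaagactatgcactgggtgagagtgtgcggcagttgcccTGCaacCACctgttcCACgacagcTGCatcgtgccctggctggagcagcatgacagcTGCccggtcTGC
Rnf115: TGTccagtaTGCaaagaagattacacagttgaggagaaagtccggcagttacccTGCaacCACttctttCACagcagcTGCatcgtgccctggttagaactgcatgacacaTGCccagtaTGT
Rnf149: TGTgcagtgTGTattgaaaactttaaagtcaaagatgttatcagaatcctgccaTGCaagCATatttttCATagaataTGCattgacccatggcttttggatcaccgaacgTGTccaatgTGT
The stretches run over residues 231 to 271 of 313 in Rnf126, 229 to 269 of 305 in Rnf115 and 265 to 305 of 394 in Rnf149. A search for the spacing of the 8 zinc-binding residues found a match in 73 of 78 members with a coding sequence (93.6%), against 0.916% of the 21503 other protein-coding genes. Rnf144a, Rnf144b, Rnf181, Rnf216 and Rnf41 held no match to this spacing. Rnf126 and Rnf115 are paralogs: their proteins were identical at 50.7% of 286 aligned residues and their RING fingers at 80.5% of 41. The RING finger of Rnf149 was identical at 48.8% of residues to that of Rnf126 and at 53.7% to that of Rnf115. No stretch of 50 bases, the read length, was shared by the transcripts of any pair of these genes, so a read that matches one without error does not match another.

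The 250 bases upstream of the RefSeq transcription start (GRCm38.p6) are shown for the paralogs, to set related genes side by side. Capitals mark the GC box (GGGCGG) and the core of the sites of ETS factors (CCGGAA), searched on both strands of these 250 bases.
Rnf126, chr10:79766953-79767202, minus strand: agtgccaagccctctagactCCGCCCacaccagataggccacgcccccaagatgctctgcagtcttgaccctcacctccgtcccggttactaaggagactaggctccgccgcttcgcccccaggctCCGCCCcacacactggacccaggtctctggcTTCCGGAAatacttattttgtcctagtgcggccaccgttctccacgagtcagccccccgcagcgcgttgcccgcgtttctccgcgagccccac
Rnf115, chr3:96727361-96727610, plus strand: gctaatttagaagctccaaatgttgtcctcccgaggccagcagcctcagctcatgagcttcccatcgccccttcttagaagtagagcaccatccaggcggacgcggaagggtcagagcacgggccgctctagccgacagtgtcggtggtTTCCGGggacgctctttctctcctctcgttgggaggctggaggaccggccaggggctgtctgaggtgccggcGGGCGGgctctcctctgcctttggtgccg
Both windows hold both motifs, whereas that of Rnf149, the third called member, holds a GC box and no match to the ETS core. Promoters matched 61 members. A GC box occurred in 54.1% of them and in 32.9% of 27025 promoters of all genes, and the ETS core in 13.1% and 12.2%. The E-box CACGTG was found in 1.64% of members and 6.05% of all promoters, TATAAA in 11.5% and 13%, and CCAAT in 34.4% and 34.5%. The median number of CG dinucleotides was 15 in the members' promoters and 6 over all. The promoters of all genes were not matched to the members by gene type or expression. A match is a description of the letters and not evidence of binding.

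Over the 19 embryos, 59 members passed the filter on low counts and 20 did not, and levels are described here in the 9 control embryos. Levels between genes are compared as RPKM, the normalised CPM per kilobase of summed exon length. The median tested member stood at 10.1 RPKM and the median tested gene at 6.05, and 37 of the 59 lay above the latter. The highest member was Rnf7, the RING subunit of cullin 5 ligases, at 567 ± 154 RPKM (SD, n = 9). It was followed by Rnf115 at 94.1 ± 30.4, the RING-between-RING protein Rnf19b at 93.7 ± 28.1, the SUMO-targeted ligase Rnf4 at 87.2 ± 9.35, the RING-between-RING protein Rnf216 at 86.0 ± 26.8 and Rnf149 at 67.1 ± 17.7. In RPKM Rnf7 lay above the rest by more than its SD, whereas neighbours among the next 4 overlapped within 1 SD. The amplified cDNA has 3′ bias, so counts may not grow with exon length, and this order may partly reflect length. Before division by length Rnf7 (1328 exon bases) measured 753 ± 205 CPM. Rnf4 (7287 exon bases) measured 635 ± 68.1 CPM and Rnf216 (7182 exon bases) 618 ± 193 CPM. Of the 50-base windows of Rnf7 transcripts, 27.4% also occur in transcripts of other genes, so part of its counts may be shared.

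**Figure D1:**
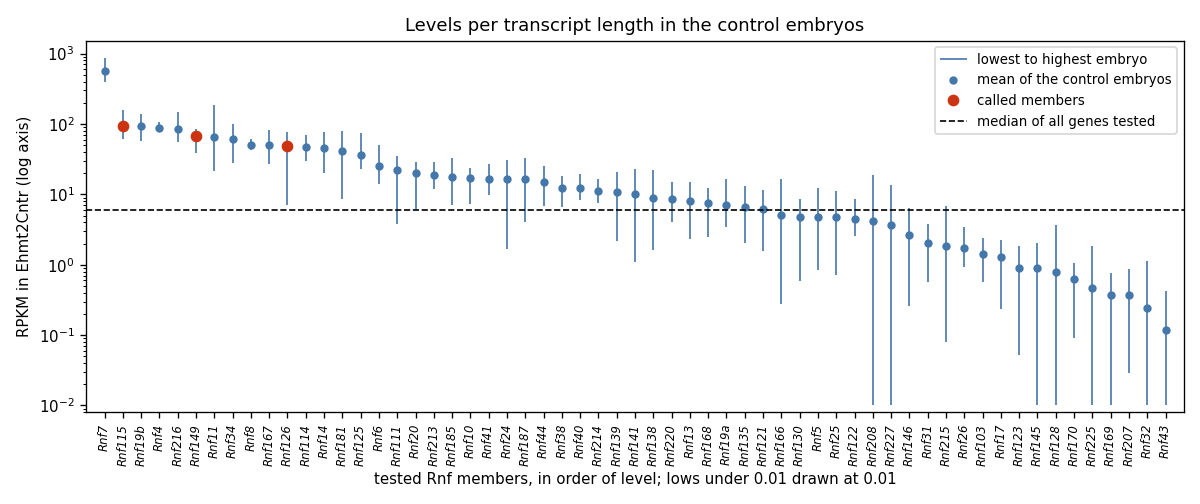
Mean level of each of the 59 tested members in the 9 Ehmt2Cntr embryos as RPKM on a log axis, with lines from the lowest to the highest embryo. Rnf7 stands highest at 567 RPKM, and the called members Rnf115, Rnf149 and Rnf126 (large points) are among the 11 highest, above the dashed median of all tested genes at 6.05.

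The median coefficient of variation over the controls was 47.9% for the members and 58.6% over all genes tested. Rnf8, which ubiquitinates histones at DNA breaks, varied by 10.6% and Rnf4 by 10.7%. Of the exon bases of Rnf8, 48.5% also belong to Gm28043 on the same strand, and its counts therefore include reads of both. The 20 members below the filter had at most 345 counts in any embryo. Rnf133, Rnf148 and Rnf222 had no count in any of the 19. The other 17 were Rnf39, Rnf112, Rnf144a, Rnf144b, Rnf150, Rnf151, Rnf152, Rnf157, Rnf165, Rnf180, Rnf182, Rnf183, Rnf186, Rnf212, Rnf217, Rnf219 and Rnf224, with a mean of at most 1.29 CPM over all embryos.

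In Ehmt2Mat against Ehmt2Cntr, edgeR called 3 members lower and none higher. DESeq2 called 5 lower and 3 higher, 8 members in all, beside 15.1% of all genes. In edgeR's quasi-likelihood test over 11754 genes, at a Benjamini-Hochberg adjusted p under 0.05, 1099 genes were called (9.35%), with 4.37% of genes higher and 4.98% lower in Ehmt2Mat. Of the 59 tested members 3 were called (5.08%). They were Rnf126, Rnf149 and Rnf115, and all 3 were lower. Since the family was chosen on this contrast, nothing is read from that share. In bulk RNA of a whole embryo, fewer cells with a transcript and less of it per cell cannot be told apart.

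Rnf126 is a ligase that works with the chaperone Bag6 on hydrophobic proteins that failed to reach a membrane. Its gene lies at chr10:79758515-79766952 on the minus strand (GRCm38). It measured 108, 88.2, 128, 91.1, 95.8, 100, 41.5, 43.7 and 11.7 CPM in Ehmt2Cntr embryos 1, 2, 3 and 5 to 10. In Ehmt2Mat embryos 1 to 10 it measured 9.27, 3.46, 11.0, 7.20, 15.1, 13.9, 14.6, 8.01, 20.0 and 15.8 CPM. Thus 8 of 9 controls lay above every mutant, and control embryo 10 lay within the mutant range. The mean was 78.7 ± 37.8 CPM (n = 9) in controls and 11.8 ± 4.92 CPM (n = 10) in mutants, and the log2 fold change was -2.73 (SE 0.37). This was the largest decrease among the tested members.

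Rnf149 belongs to the membrane-spanning ligases with a protease-associated domain. Its gene lies at chr1:39551296-39577405 on the minus strand. The controls, in the order above, measured 162, 240, 221, 111, 188, 239, 228, 210 and 116 CPM. The mutants measured 59.0, 71.9, 35.7, 30.2, 54.0, 91.2, 50.6, 68.7, 55.2 and 145 CPM. All mutants but embryo 10 lay below every control, and 7 controls lay above every mutant. The means were 190 ± 50.2 and 66.2 ± 32.8 CPM, with a log2 fold change of -1.52 (SE 0.25). Of its exon bases, 24.9% also belong to Gm15832 on the same strand, which was itself called lower with a log2 fold change of -1.35 (SE 0.32), and reads were counted for every gene they overlapped. Gm15832 was named after its values were seen.

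Rnf115, the paralog of Rnf126, also binds Bag6 and has been studied in membrane traffic. Its gene lies at chr3:96727664-96791638 on the plus strand. The controls measured 249, 204, 235, 263, 233, 371, 262, 458 and 175 CPM. The mutants measured 165, 147, 141, 126, 119, 95.3, 93.8, 207, 199.7 and 80.1 CPM. Here 7 controls lay above every mutant and 8 mutants below every control, so the groups overlapped at control embryos 2 and 10 and at mutant embryos 8 and 9. The means were 272 ± 88.1 and 137 ± 43.5 CPM, with a log2 fold change of -0.99 (SE 0.21). For each of the 3 genes all 10 mutants lay below the control median.

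**Figure D2:**
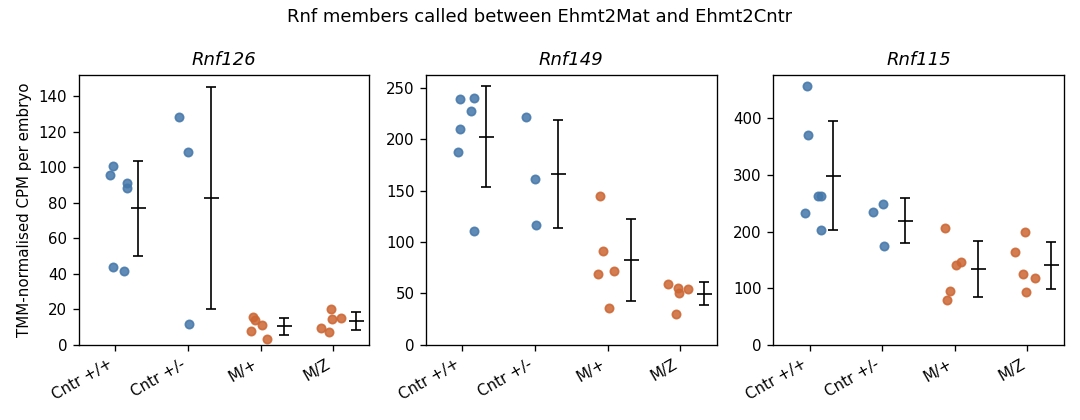
TMM-normalised CPM of Rnf126, Rnf149 and Rnf115 in each embryo (points), by maternal and zygotic genotype, with mean and SD beside each subgroup. Mutant embryos lie at 3.46 to 20.0 CPM for Rnf126, and control embryo 10 at 11.7 CPM is the only control within that range. Control embryos 8 and 9 are the next lowest, at 41.5 and 43.7 CPM.

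Without the embryos numbered 10 in both groups, an alternative chosen after seeing the data, the log2 fold change was -2.93 (SE 0.33) for Rnf126, -1.80 (SE 0.22) for Rnf149 and -0.98 (SE 0.20) for Rnf115. In that fit 6 of 59 members were called, with Rnf40 and Rnf181 higher and Rnf7 lower, beside 11.8% of all genes tested. Leaving out control embryo 10 alone gave 5 called members beside 10.6% of all genes, and leaving out mutant embryo 10 alone gave 5 beside 10.8%. Within the zygotic +/- embryos of both groups Rnf126 measured 82.6 ± 62.2 CPM (n = 3) in controls and 10.4 ± 4.90 CPM (n = 5) in mutants. The log2 fold changes there were -2.99 for Rnf126, -1.02 for Rnf149 and -0.72 for Rnf115, and none of the 3 was called in a fit that called 1 of 13401 genes.

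No member separated the groups fully, and 0.179% of tested genes lay lower and 0.34% higher in every mutant than in every control. The median log2 fold change of the 59 members was -0.02, beside -0.04 for all genes tested, with quartiles of -0.47 and 0.47 for the members and -0.53 and 0.44 for all. Of the members 27 had a positive and 32 a negative value, and 51 changed by less than 1 on the log2 scale. Of the 8 that changed by 1 or more, 2 were called. Rnf128, which restrains T-cell activation, had the highest value, 2.15 (SE 1.16), from 2.75 ± 4.35 CPM in controls and 12.3 ± 26.5 in mutants, where a single embryo reached 87.2 CPM.

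**Figure D3:**
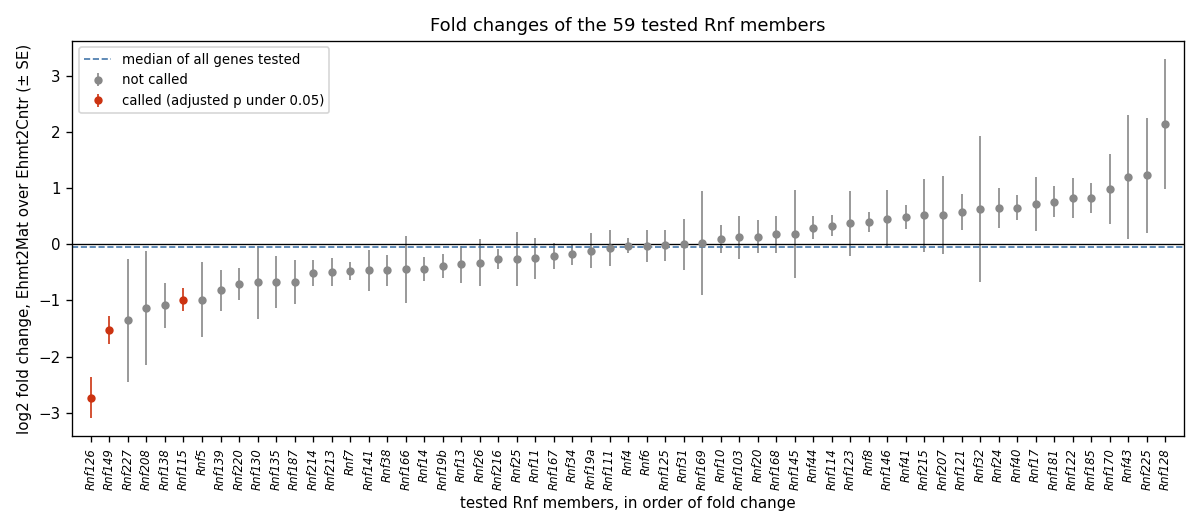
Log2 fold change of Ehmt2Mat over Ehmt2Cntr with its SE for the 59 tested members in order. The 3 called members lie from -2.73 to -0.99. Rnf227 (-1.35), Rnf208 (-1.14) and Rnf138 (-1.09), not called, lie between Rnf149 and Rnf115. The dashed line marks the median of all tested genes at -0.04.

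The members just outside the threshold were Rnf185, Rnf40 and Rnf7. Rnf185, a ligase of the endoplasmic reticulum that marks proteins for degradation, measured 51.5 ± 27.4 CPM in controls and 91.5 ± 17.5 in mutants, with a log2 fold change of 0.83 (SE 0.27), and 10 of 10 mutants lay above the control median. Rnf40, which with Rnf20 monoubiquitinates histone H2B, measured 50.8 ± 15.0 and 79.8 ± 24.2 CPM, a log2 fold change of 0.65 (SE 0.22), and again 10 mutants lay above the control median. Rnf7 measured 753 ± 205 and 543 ± 104 CPM, a log2 fold change of -0.47 (SE 0.16), and 8 mutants lay below the control median. DESeq2 called 8 members, these 3 with Rnf138, Rnf181, Rnf126, Rnf149 and Rnf115, beside 15.1% of all genes. Without control embryo 10, Rnf40 had a log2 fold change of 0.76 and was called.

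**Figure D4:**
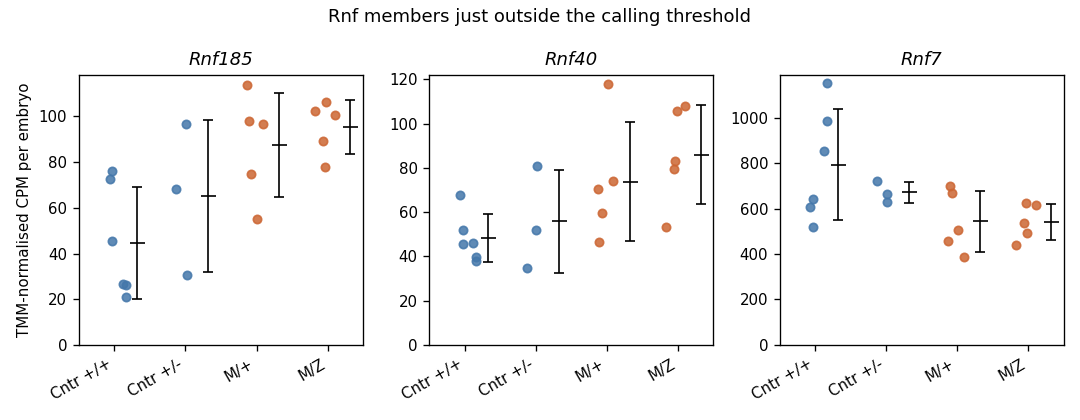
TMM-normalised CPM of Rnf185, Rnf40 and Rnf7 in each embryo (points), by maternal and zygotic genotype, with mean and SD beside each subgroup. The groups overlap for each gene, with mutant means of 91.5, 79.8 and 543 CPM against control means of 51.5, 50.8 and 753 CPM.

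By role, protein and ribosome quality control held 2 of the called members among 12 tested, beside 9.35% of all genes called, and its median log2 fold change was -0.09. Within it Rnf5, the paralog of Rnf185 in the endoplasmic reticulum, measured 7.11 ± 6.53 CPM in controls and 3.60 ± 3.79 in mutants. Rnf139, a membrane ligase of the same compartment, measured 47.4 ± 23.4 and 26.9 ± 12.6 CPM. Rnf10, which ubiquitinates proteins of stalled small ribosomal subunits, measured 127 ± 37.1 and 136 ± 56.1 CPM. None of these was called.

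Among the 6 tested ligases with a protease-associated domain Rnf149 was the only called gene, and the median was -0.28. Rnf167, which resides in lysosomes, measured 177 ± 61.4 CPM in controls and 153 ± 51.6 in mutants. Rnf13, a close relative, measured 79.7 ± 47.7 and 62.3 ± 20.1 CPM. Rnf43, which removes Wnt receptors from the cell surface, stood near the detection limit at 0.768 ± 1.10 and 1.78 ± 1.74 CPM.

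The group acting at chromatin, in DNA repair and in the germ line had 9 tested members, none called, and a median of 0.13. Rnf4, which ubiquitinates proteins carrying SUMO, measured 635 ± 68.1 and 625 ± 101 CPM, a log2 fold change of -0.02 (SE 0.13) whose sign turned under upper-quartile normalisation. Rnf8 measured 161 ± 17.0 and 212 ± 80.2 CPM, and Rnf168, which extends the histone marks that Rnf8 starts, 33.1 ± 14.4 and 37.5 ± 14.7. Rnf20, the partner of Rnf40, measured 145 ± 63.2 and 159 ± 66.9 CPM. Rnf138, which acts in the resection of DNA ends, measured 27.5 ± 19.5 and 12.9 ± 5.94 CPM, a log2 fold change of -1.09 (SE 0.41).

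The RING-between-RING ligases, which pass ubiquitin through a cysteine of their own, had 5 tested members, none called, and a median of -0.27. Rnf216 measured 618 ± 193 CPM in controls and 514 ± 106 in mutants, and Rnf14 160 ± 61.8 and 118 ± 24.6. Rnf31, the catalytic subunit of the complex that builds linear ubiquitin chains, measured 9.80 ± 4.35 and 9.79 ± 6.44 CPM. Signalling and immunity held 13 tested members, none called, and a median of -0.25. In that group 10 of 13 values were negative, among them Rnf213, a very large ligase with an ATPase core, at 313 ± 102 and 223 ± 93.3 CPM. Rnf114, a ligase with zinc fingers beside its RING, measured 160 ± 44.2 and 201 ± 49.2 CPM. The remaining 14 tested members, none called, had a median of 0.45, with Rnf181 at 85.9 ± 39.3 and 146 ± 45.4 CPM and Rnf24 at 112 ± 68.7 and 176 ± 69.1 CPM.

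The zygotic genotype was compared separately within each maternal group, a contrast that played no part in choosing the family. Among 5 Ehmt2M/Z and 5 Ehmt2M/+ embryos, 60 members were tested in 12195 genes and edgeR's quasi-likelihood test called 0.0% of genes and 0 members, with a lowest adjusted p of 0.9997. At an unadjusted p under 0.05 it gave 1 member and 2.21% of genes, and DESeq2 called 0 members and 3 genes (0.0246%). The 1 member was Rnf24, named after its values were seen, at 134 ± 23.8 CPM in Ehmt2M/Z and 218 ± 76.4 in Ehmt2M/+, a log2 fold change of -0.69 (SE 0.27). Part of its exon bases, 16.5%, lie opposite Pank2, and the counting is not stated to use strand. The median log2 fold change was -0.03 for the members and -0.04 for all genes.

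The 3 members that edgeR called lower in Ehmt2Mat showed no called difference by zygotic genotype. Rnf126 stood at 13.2 ± 5.07 CPM in Ehmt2M/Z and 10.4 ± 4.90 in Ehmt2M/+, with a log2 fold change of 0.34 (SE 0.53). Rnf115 stood at 141 ± 41.7 and 134 ± 50.0 CPM, with a log2 fold change of 0.07 (SE 0.30). Rnf149 stood at 49.8 ± 11.3 and 82.5 ± 40.3 CPM, with a log2 fold change of -0.73 (SE 0.35), and embryo 10 is the highest of the latter subgroup. With 5 embryos on each side the standard errors leave room for sizeable differences.

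Among the controls, 3 +/- and 6 +/+ embryos were compared over 12646 genes and 61 members. The edgeR test called 0.0% of genes and 0 members, with a lowest adjusted p of 0.9998, and DESeq2 called 0 members and 3 genes (0.0237%). At an unadjusted p under 0.05 edgeR gave 1 member and 4.52% of genes. That member was Rnf145, a sterol-regulated ligase of the endoplasmic reticulum named after its values were seen, at 1.17 ± 1.58 CPM in +/- and 9.79 ± 4.96 in +/+ embryos, a log2 fold change of -3.03 (SE 1.37). Rnf126 measured 82.6 ± 62.2 CPM in +/- and 76.8 ± 26.8 in +/+ controls, with a log2 fold change of 0.12 (SE 0.56). The low control embryo 10 belongs to the +/- subgroup, where the other embryos measured 108 and 128 CPM.

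The rest of the ubiquitin system was read from lists of genes, chosen like the members with earlier results known, and is given by counts and medians. Beside these counts, 9.35% of all genes tested were called, 4.37% higher and 4.98% lower. Called were 9.4% of E2 enzymes, 16.7% of other RING ligases and 8.70% of HECT ligases. The share was 16.7% for partners of Rnf proteins, 3.45% for deubiquitinases and 0% for ubiquitin and E1 and for cullin ligases. As with the members, nothing is read from these shares. Of 6 tested genes for ubiquitin and E1 enzymes none was called, and the median log2 fold change was 0.08. Of 32 tested E2 enzymes 3 were called lower and none higher, with a median of -0.43. Ube2s, which elongates ubiquitin chains on substrates of the anaphase-promoting complex, measured 33.5 ± 19.9 CPM in controls and 6.10 ± 2.49 in mutants, a log2 fold change of -2.46 (SE 0.41). Ube2f, which carries Nedd8 to cullin 5 together with Rnf7, measured 61.1 ± 27.1 and 19.7 ± 9.47 CPM, a log2 fold change of -1.64 (SE 0.34). Control embryo 10 was the lowest control for both, at 4.68 CPM for Ube2s and 11.1 CPM for Ube2f. The third E2, Ube2a, partner of the H2B ligases and named after its values were seen, had a log2 fold change of -0.96 (SE 0.29).

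Of 36 tested RING ligases with other names, 1 was called higher and 5 lower, with a median of -0.26. Mkrn2, a makorin that also binds RNA, rose from 174 ± 43.5 to 278 ± 33.2 CPM, a log2 fold change of 0.67 (SE 0.17), and every mutant lay above every control. Its paralog Mkrn1 fell from 935 ± 348 to 402 ± 143 CPM, a log2 fold change of -1.22 (SE 0.23). Znrf2 fell from 320 ± 127 to 138 ± 57.3 CPM, a log2 fold change of -1.21 (SE 0.27). The other genes called lower were Xiap, March6 and March7, named after their values were seen. The part of embryo sex, unequal between the groups, in the values of these lists was not tested. Of 23 tested HECT ligases 2 were called lower, with a median of -0.31. They were Nedd4l, a ligase of membrane channels, at 136 ± 75.1 and 47.7 ± 13.8 CPM, and Trip12 at 587 ± 150 and 393 ± 100 CPM. Of 15 tested cullin ligase genes none was called, and their median was -0.43.

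The partners of Rnf126 are the Bag6 complex and the co-chaperone Sgta. Get4, a subunit of that complex, was called lower, at 40.8 ± 13.2 CPM in controls and 19.3 ± 8.09 in mutants, a log2 fold change of -1.08 (SE 0.28). Bag6 itself measured 190 ± 48.9 and 159 ± 50.1 CPM, Ubl4a 62.5 ± 33.2 and 43.3 ± 20.9, and Sgta 521 ± 176 and 410 ± 87.0, with log2 fold changes of -0.26 (SE 0.20), -0.53 (SE 0.33) and -0.35 (SE 0.19) that were not called. Ubl4a lies on the X chromosome, and the part of embryo sex in its values was not tested. For Get4 control embryo 10 was again the lowest control, at 17.7 CPM. Among the 12 partners tested 1 more was called, Mdc1, the scaffold that recruits Rnf8 to broken DNA, which rose from 31.0 ± 15.9 to 62.6 ± 26.3 CPM, a log2 fold change of 1.02 (SE 0.32). Of 29 tested deubiquitinases 1 was called lower, Cops5, which removes Nedd8 from cullins, at 256 ± 95.3 and 150 ± 31.1 CPM, and the median was -0.16.

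**Figure D5:**
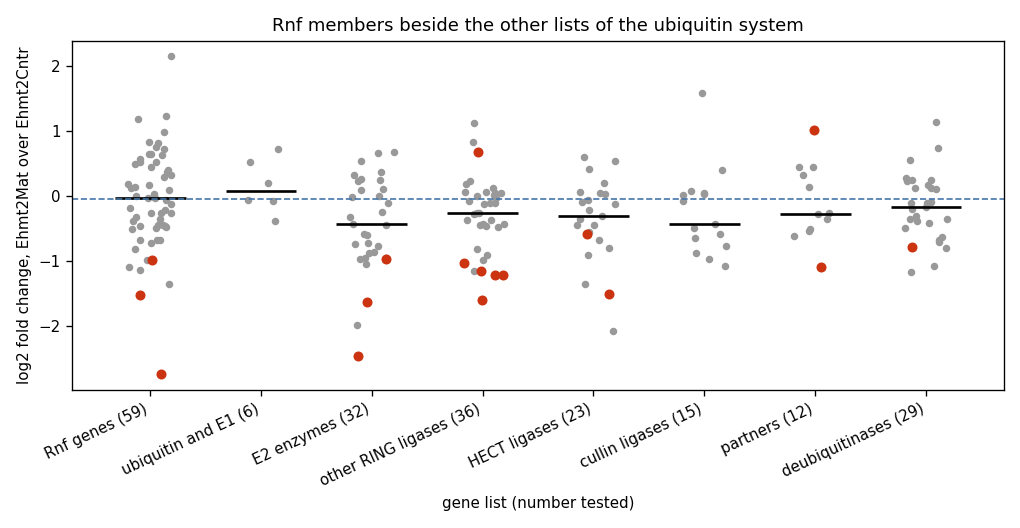
Log2 fold change of Ehmt2Mat over Ehmt2Cntr for each tested gene (points) of the Rnf family and of 7 other lists of the ubiquitin system, with called genes in red, the median of each list as a black bar and the median of all genes as a dashed line. The Rnf median of -0.02 lies next to that line, and the list medians run from -0.43 to 0.08.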

How the data were processed

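Single embryos were sequenced from amplified cDNA with 3′ bias as single-end reads of 50 bases. The authors deposited raw counts per gene made with featureCounts 1.5.0 from exons of Ensembl release 82 (GRCm38), with multi-mapping reads kept, a read counted for every gene it overlapped and a minimum overlap of 10 bases. No strand option is stated. TopHat2 and DESeq2 are also named in the submitters' processing notes, and the aligner version is not given in the sources used here. One control embryo (number 4) was not analysed here.

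All counts were normalised by TMM and tested with edgeR 4.0.16 (R 4.3.3) in quasi-likelihood fits over all genes kept by filterByExpr, with Benjamini-Hochberg adjustment. A call is an adjusted p under 0.05. CPM values in the text are TMM-normalised. Total counts of 8231646 to 30602434 set the precision of low members. DESeq2 1.42.0, other scaling, filters, covariates, thinning and left-out embryos were alternatives. The script was tested on simulated data. Replicate numbers were compared between groups. The members and gene lists were chosen with earlier results of these data known. Named were all called members, the 3 members nearest the threshold on each side, the 6 highest per length, the paralog and partners of Rnf126, Ehmt2, and up to 2 called genes per direction from each pathway list. Annotation came from GENCODE vM21 and RefSeq (GRCm38.p6), and alignments were made with Biopython 1.88.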

Additional observations from a re-analysis of the deposited data

Results flagged for a closer look

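Rnf126 in control embryo 10 was flagged because that embryo lay far from the others of its group. It measured 11.7 CPM, whereas the other 8 controls measured 41.5 to 128 CPM, and on the log2(CPM + 1) scale the gap to the nearest was 0.521 of the group's range, above Dixon's 95% critical value of 0.493. On the CPM scale itself the gap was 0.256 of the range and below that value. On that scale Rnf149 in mutant embryo 10, at 145 CPM beside 30.2 to 91.2 CPM in the other mutants, was the far value instead, with a gap of 0.47 of the range against a critical value of 0.466. On each scale 1 of 18 groups of values had a far embryo, and chance flags about 5% of groups. Control embryo 10 had the second lowest control value of Rnf149 and the lowest of Rnf115, Ube2s, Ube2f, Get4, Znrf2 and Cops5. It was not at the low end for Nedd4l, at 106 CPM among controls of 46.5 to 295 CPM. Nor was it for Trip12, at 573 CPM among 356 to 815 CPM. For Mkrn2, higher in the mutants, it lay below every mutant at 187 CPM. Its total of 30053248 counts was the highest among the controls. The part of any technical or biological difference of this embryo was not tested.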

How the results depend on the processing

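Rnf126, Rnf149 and Rnf115 were called lower under every alternative run except the fit of zygotic +/- embryos, which called 0 members. With sex as a covariate their log2 fold changes were -2.72 (SE 0.38), -1.63 (SE 0.26) and -0.91 (SE 0.22). With 1 embryo left out, the number of members called ran from 3 to 5, beside 7.5% to 10.8% of all genes. In those fits the log2 fold changes of the 3 genes ran from -2.88 to -2.61, -1.73 to -1.44 and -1.07 to -0.85. The number of members called was 8 with DESeq2 (15.1% of all genes called), 5 of 53 at a mean CPM of at least 5 (14.2%) and 6 without both embryos numbered 10 (11.8%). The median member log2 fold change was -0.16 at a mean CPM of at least 5, and -0.14 to 0.04 with 1 embryo left out. Rnf4 turned positive under upper-quartile normalisation (0.0035), without the filter on low counts (0.0037) and in zygotic +/- embryos (0.12), and ran from -0.063 to 0.020 with 1 embryo left out. DESeq2 called 9 E2 enzymes, 4 HECT ligases, 2 cullin ligase genes and 6 deubiquitinases, beside 15.1% of all genes against 9.35% in edgeR. Without both embryos numbered 10 the counts were 1 for ubiquitin and E1, 6 for E2, 1 for cullin ligase genes, 1 for partners and 4 for deubiquitinases. The cause of these shifts was not tested, and some of these fits held fewer embryos or genes.

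Numbers shared by embryos of both groups did not pair them: over 9 pairs the correlation of deviations ran from -0.156 to 0.0856. With the replicate block 3 members, 693 genes in all (6.05%), 1 cullin ligase gene and 0 partners were called. Members at few counts are limited by depth, and the 20 members below the filter could not be compared.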
